A study of Mus musculus with 4 samples.

Results

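IL-17-producing cells that had arisen from Foxp3+ CD4 T cells were set against Th0 cells that had arisen from naive CD4 T cells. The comparison was chosen by label alone and rests on 2 of the 4 arrays of the series, 1 labelled exFoxp3Th17 and 1 labelled Th0, read across all genes. Of 18193 genes with a probe set of their own, 11241 lay above the floor on either array and are compared here. The floor is a signal of 12.1, the median of all probe sets over the 4 arrays, and dimmer values were raised to it before log2 ratios were computed.

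C57BL/6 mice gave the cells, from spleen and lymph nodes, at an age of 8 to 10 weeks, and the cells were sorted after culture by a GFP reporter of IL-17 and by Foxp3 staining. The exFoxp3Th17 cells were Foxp3+CD4+ T cells that were cultured under Th17 conditions and sorted as positive for IL-17 and negative for Foxp3. The Th0 cells were naive CD4+ T cells that were kept under Th0 conditions and sorted as negative for both. Th17 cells had naive precursors, Th17 conditions and a gate positive for IL-17 and negative for Foxp3. Treg cells had Foxp3+ precursors, IL-2 and a gate positive for Foxp3 and negative for IL-17. Both are cited only as values beside the members and as medians of the type I interferon list, since their comparisons share the Th0 array. The cytokines, the length of culture and the number of mice are not given in the sources used here. Precursor, culture condition and sort gate all differ between exFoxp3Th17 and Th0, and so do the sex-linked transcripts described below. Their parts in any difference cannot be told apart. Each population has 1 array, so there is no replicate, no error between samples and no test, and every difference below is a difference between single arrays.

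Foxp3 is the transcription factor that specifies regulatory T cells, which hold back immune responses and depend on IL-2 signalling through STAT5. Th17 cells are helper T cells that secrete IL-17 and related cytokines. They form when TGF-beta acts together with IL-6, which signals through STAT3 and induces nuclear receptors such as RORa. Regulatory T cells that lose Foxp3 can take on features of helper T cells, and such former Foxp3+ cells are called exFoxp3 cells. Th0 cells are activated T cells that received no polarising cytokine.

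The sort markers and the T cell identity of the arrays were read first. Foxp3 had a signal of 4.25 in Th0 and 8.03 in exFoxp3Th17, both below the floor, and 585 in Treg. Il17a did not reach the floor on any array (7.09 in Th0 and 9.41 in exFoxp3Th17), so its probe set did not show the IL-17 gate. The T cell receptor chain genes Cd3d (4127 in Th0, 4536 in exFoxp3Th17) and Cd3g (2962 and 3207), the adaptor gene Lat (1588 and 1766), and Cd4 (109.6 and 98.1) were within 1.12-fold of each other. Xist, the long RNA behind X inactivation in females, was 7.41 in Th0 and 3766 in exFoxp3Th17 (7.73 in Th17, 10.8 in Treg). The Y-linked Eif2s3y was 747 in Th0 and 4.66 in exFoxp3Th17 (876 in Th17, 654 in Treg). In both genes the exFoxp3Th17 array stood apart from the other 3. Of the 354 X-linked genes above the floor, 60 were higher and 25 lower by 2-fold or more, with a median log2 ratio of 0.18. Beside them, 1122 of the 10862 autosomal genes above the floor were higher and 966 lower, with a median of -0.003. Of 5 Y-linked genes 4 were lower. The sex-linked difference thus sets exFoxp3Th17 apart from Th0, from the array with its culture and gate and from the array with its precursor. The labels give no sex, and what lies behind this difference cannot be told apart from anything else that sets exFoxp3Th17 apart. This holds for every difference between exFoxp3Th17 and Th0 below. It holds too for every statement that this array was the highest, lowest or only one of the 4.

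Markers of other cells were near the floor on both arrays. Of 9 measured B cell markers 7 lay below it on both, Ms4a1, Cd79a and Pax5 among them. Ighm, the immunoglobulin mu chain, was the exception at 3316 in Th0 and 959 in exFoxp3Th17 (807 in Th17, 2406 in Treg), and it made up most of the list's summed signal of 3358 and 1006. Macrophage and dendritic cell markers had 7 of 10 below the floor and summed to 115 in Th0 and 46.8 in exFoxp3Th17, with Lyz2 and Cd14 below it and Adgre1 at 32.2 and 8.49. Neutrophil and mast cell markers had 9 of 11 below it, S100a8, S100a9 and Mpo included, and summed to 62 and 99.9, of which Kit gave 6.63 and 74. For NK and innate lymphoid cells 5 of 6 markers lay below the floor (sums of 31 and 32.7), and for CD8 T cells Cd8a did (sums of 91.5 and 89.8). Erythroid and platelet markers were below it for 5 of 7 (sums of 69.8 and 77.5), and stromal, endothelial and epithelial markers for 8 of 11 (sums of 158 and 242), the adhesion molecule gene Pecam1 being 2-fold higher at 94.9 and 192. Among 4 measured gamma-delta T cell markers, 5830411N06Rik (Scart2), a scavenger receptor gene, was 13 in Th0 and 43.5 in exFoxp3Th17. On arrays of bulk RNA, fewer cells of a type and less RNA per cell cannot be told apart. The part of other cells in the results was not tested.

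Most genes above the floor in the Th17 program, follicular helper and chemokine receptor lists were higher on the exFoxp3Th17 array than on Th0. Most genes for DNA replication, mitosis and cholesterol synthesis were lower there. The TGF-beta group was called higher in part, and the glycolysis, type I interferon and IL-2 groups were called lower in part. In all, 1184 genes were higher in exFoxp3Th17 and 995 were lower by 2-fold or more, with the higher array above the floor, and such genes are called higher or lower below. That is 10.5% and 8.85% of the 11241 genes, 19.4% together, and the median log2 ratio of all of them was 0.00. Beside these shares, 11 of 13 Th17 program genes, 9 of 15 chemokine receptors, 7 of 12 follicular helper genes and 7 of 16 TGF-beta genes above the floor were called higher. Called lower were 22 of 23 mitosis genes, 21 of 27 DNA replication genes, 13 of 17 cholesterol synthesis genes, 12 of 24 glycolysis and HIF-1 genes, 9 of 20 type I interferon genes and 5 of 14 IL-2 and STAT5 genes. The lists were chosen with earlier results of these data known, so their counts are descriptions and not tests. The calls were 4-fold or more for 379 higher and 238 lower genes, and 16-fold or more for 52 and 20. Where the other array lay below the floor, as for 287 higher and 134 lower genes, the true ratio can be larger, which "at least" marks.

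The genes farthest apart in the upward direction came from several families. After Xist, which was at least 311-fold higher, the next was Gpr15, a receptor that guides T cells to the large intestine, with 6.93 in Th0 and 2163 in exFoxp3Th17 (1161 in Th17, 121 in Treg), at least 179-fold. Tox2, an HMG-box factor of follicular helper cells, was 16.8 in Th0 and 2150 in exFoxp3Th17 (383 in Th17, 26.6 in Treg), a 128-fold difference. Both exFoxp3Th17 readings stood above the other 3 arrays. The protease inhibitor gene Ctla2b (21.1 and 1747) and the protease genes Ctsw, cathepsin W (20.4 and 984), and Cpd, carboxypeptidase D (41.2 and 1895), were 82.8-fold, 48.2-fold and 46-fold higher. For these 3 genes Th17 was higher still, at 3063, 1358 and 2290. Rasgrp3, an activator of Ras, was 0.97 in Th0 and 433 in exFoxp3Th17, at least 35.7-fold, and lay at 0.514 in Th17 and 13.3 in Treg, so that it was far above the floor on the exFoxp3Th17 array alone. The remaining members of the upward 20 that are not described further on were Sestd1, Crispld2, the surface glycoprotein gene Cd24a, the lipid droplet coat gene Plin2, the ubiquitin ligase adaptor gene Spsb1 and the lectin-like receptor gene Klrb1f, with ratios from at least 35.2-fold to 47-fold.

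The downward genes were led by Dapl1, a gene that marks naive T cells, which was 2522 in Th0 and 14.1 in exFoxp3Th17, 178-fold lower. It was 14.9 in Th17 and 89.3 in Treg, so Th0 stood apart from all 3 other arrays. Pdlim4, a cytoskeletal PDZ and LIM protein, was 958 in Th0 and 1.21 in exFoxp3Th17, at least 79.1-fold lower, and was below the floor in Th17 and Treg too (4.1 and 11.1). Myo6, an unconventional myosin, fell from 1529 in Th0 to 24.7 in exFoxp3Th17, and Drc1, a dynein regulatory complex gene, from 609 to 2.85. Myo6 and Drc1 kept a signal in Th17 (176 and 99.8) and in Treg (169 and 293). Treg was above Th0 for Itih5 (435 in Th0, 13.7 in exFoxp3Th17, 25.5 in Th17, 1255 in Treg) and the coronin gene Coro2a (427, 14.9, 100.04 and 666). The other autosomal genes of the downward 20 not described further on were Slpi, a protease inhibitor, Hemgn, Sytl2, Acsl6, Akr1c12, Nacc2 and the non-coding RNA Mirt1, from at least 15.7-fold to at least 27.1-fold lower.

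**Figure D1:**
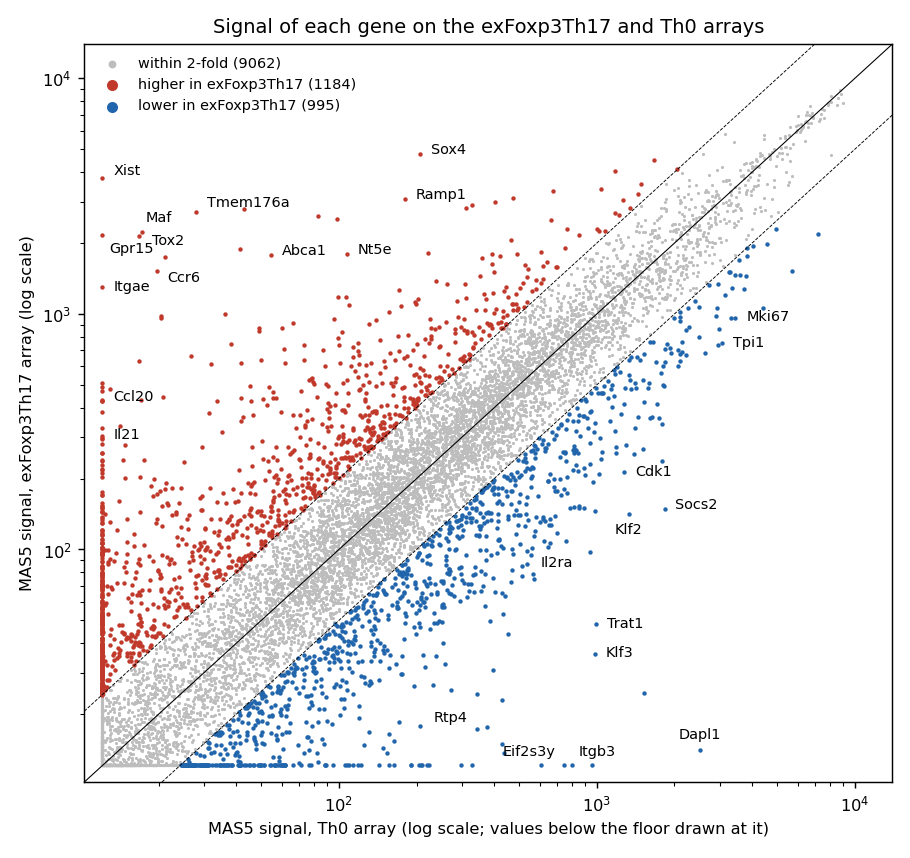
MAS5 signal of the 11241 genes above the floor on either array, on the Th0 array (horizontal, log scale) and the exFoxp3Th17 array (vertical, log scale). Values below the floor of 12.1 are drawn at it, with the solid line at equality and the dashed lines at 2-fold. The 6952 genes below the floor on both arrays are not drawn. Genes called higher (1184, red) reach from Il21 at the floor of the Th0 array to Sox4 near the top, and genes called lower (995, blue) end with Dapl1 and Itgb3 at the bottom right.

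Agreement between the probe sets of a gene was the check the arrays allowed. Of the 1184 genes called higher, 634 had another probe set above the floor, and in 540 of them every such probe set went the same way. Of the 995 called lower, 475 had another, and in 438 all went the same way. A probe set going the opposite way by 2-fold or more was met in 3 genes of each direction. Among these was Mxd4, an antagonist of Myc, whose brightest probe set read 464 in Th0 and 2059 in exFoxp3Th17 (208 in Th17, 225 in Treg). Its other probe sets gave log2 ratios from -1.56 to 2.20, and 2 of the 3 were higher by 2-fold or more. The other probe sets had a median log2 ratio of 1.01 for higher genes and -1.16 for lower genes, beside 1.61 and -1.47 for the brightest ones, which were chosen for passing 2-fold. Of the called genes named in the text, 116 had another probe set above the floor. Every such probe set went the same way in 106 of them, and by 2-fold or more in 71. In 23 none reached 2-fold in the same direction. These were Acsl6, Ahr, Bach2, Birc3, Cdc45, E2f1, Entpd1, Fasl, Fbl, Fosl2, Gusb, Ifngr2, Ikzf2, Ikzf3, Kit, Nfat5, Nfkbie, Plagl1, Smad7, Tet2, Tgfbr1, Tnfrsf1b and Xaf1. A probe set went the opposite way in Bcl2l11, Ccnd3, Csf1, Ifngr2, Ighm, Ikzf2, Il4ra, Mxd4, Smad7 and Stat3. Over 2640 genes with 2 probe sets above the floor, the log2 ratios of the pair differed with a robust SD of 0.49, which describes measurement within these arrays and not the spread between cultures. The share of genes called was 32.5% at 2 to 4 times the floor and 18.9% above 64 times the floor, and fell from bin to bin between them (23.4% and 20.6%), while no gene below 2 times the floor can be called.

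**Figure D2:**
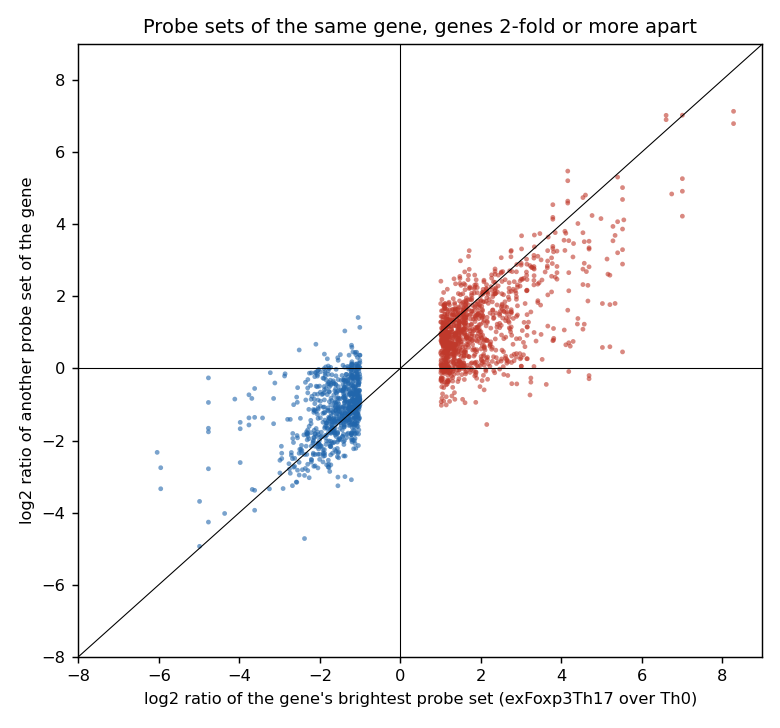
Log2 ratio (exFoxp3Th17 over Th0) of each further probe set above the floor against that of the brightest probe set of the same gene, for genes called higher (red) and lower (blue), with the diagonal at equality. Of 1084 further probe sets of higher genes 980 lie above 0, and of 758 of lower genes 713 lie below 0.

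The Th17 program was higher in exFoxp3Th17 in 11 of its 13 genes above the floor and lower in none, with a median log2 ratio of 4.60. Among its transcription factors, Maf, which drives Il21 and Il10, was 17.2 in Th0 and 2219 in exFoxp3Th17 (3072 in Th17, 1351 in Treg), 129-fold higher. Rora, the gene of the nuclear receptor RORa, was 66.3 in Th0 and 918 in exFoxp3Th17 (682 in Th17, 107 in Treg), 13.8-fold higher. Ahr, the aryl hydrocarbon receptor, was 38 in Th0 and 746 in exFoxp3Th17 (1528 in Th17, 183 in Treg). Th0 was the lowest of the 4 arrays for all 3 genes, and exFoxp3Th17 stood above Treg. All 4 further probe sets of Maf and 5 of 6 of Rora above the floor were higher by 2-fold or more, and that of Ahr was higher by less than 2-fold. Stat3, which carries the IL-6 signal, was 264 in Th0 and 675 in exFoxp3Th17, 2.56-fold higher, with 2 of its 3 further probe sets going the same way. Batf (420.3 and 657) and Irf4 (109.5 and 80.3), AP-1 and interferon regulatory factors that open Th17 genes, were within 2-fold, and Irf4 reached 1055 in Th17. Il17f, Il22 and Il23r were not analysed here.

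Secreted and surface products of the program went the same way. Il21, a cytokine that sustains Th17 and follicular helper cells, was 0.813 in Th0 and 294 in exFoxp3Th17 (1212 in Th17, 0.77 in Treg), at least 24.3-fold higher. Its other probe set read 1.5 and 339, so both were below the floor in Th0 and far above it in exFoxp3Th17. Ccr6, the receptor that leads Th17 cells towards its ligand Ccl20, was 19.6 in Th0 and 1522 in exFoxp3Th17 (329 in Th17, 54.5 in Treg), 77.5-fold higher. Ccl20 itself was 1.02 and 427 (169 in Th17, 2.67 in Treg), at least 35.3-fold higher, so the gene of the ligand and that of its receptor were highest on the same array. Il17re, a chain of the IL-17C receptor, was 17.1 in Th0 and 433 in exFoxp3Th17 (72.2 in Th17, 12.5 in Treg), and both further probe sets were higher by 2-fold or more. Tmem176a and Tmem176b, neighbouring genes of membrane proteins found in Th17 cells, were 97.4-fold and 65.1-fold higher (27.8 and 2710, and 42.7 and 2781). In Th17 this pair read 664 and 763. Il1r1, the receptor through which IL-1 supports Th17 cells, was 1.42 in Th0 and 107 in exFoxp3Th17, near the 103 of Th17. IL-17 positive gates were common to the exFoxp3Th17 and Th17 arrays, and the values of both are given for that reason.

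**Figure D3:**
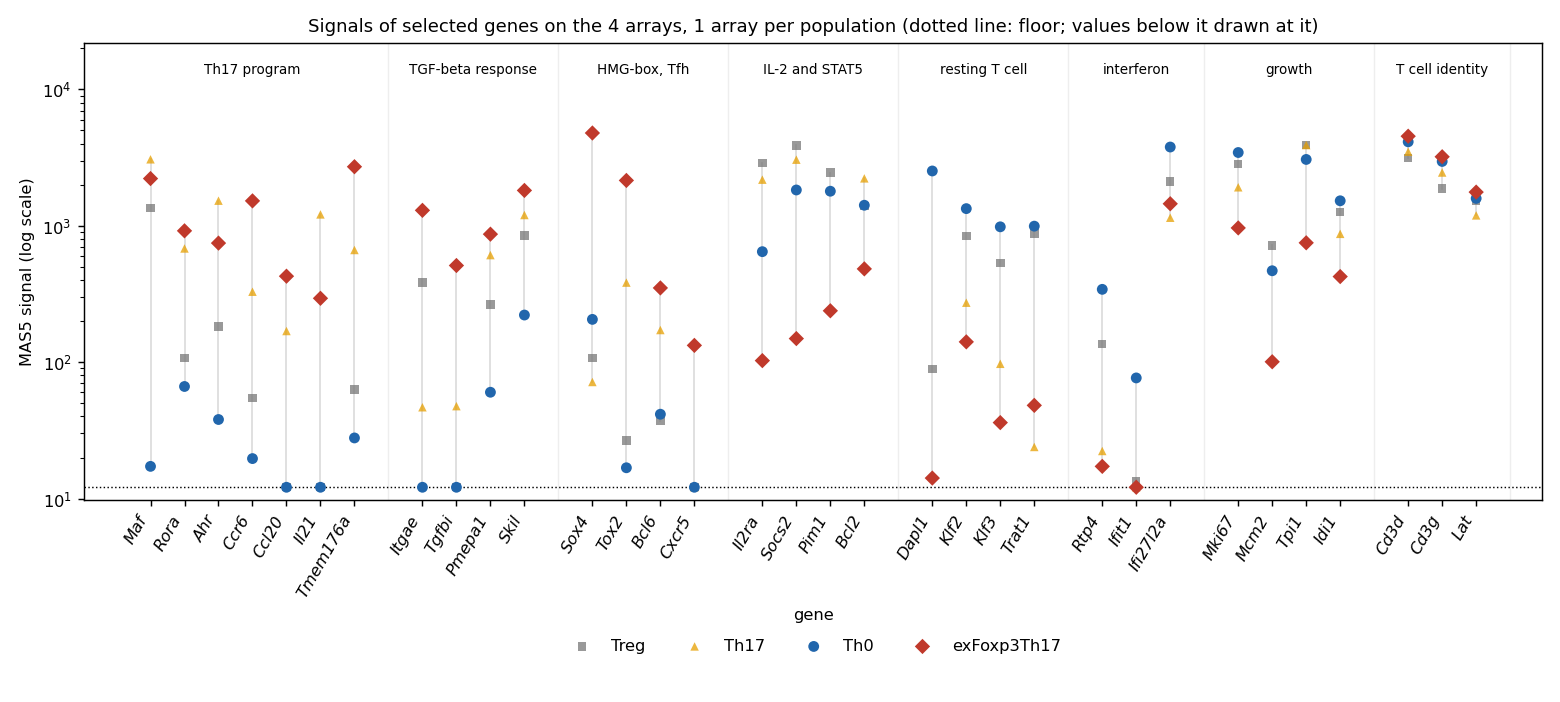
MAS5 signal (log scale) of selected members on the 4 arrays, 1 point per array. The floor of 12.1 is a dotted line, and values below it are drawn at it. The headings group genes picked by hand and are not the lists. Itgae is drawn under TGF-beta but listed with the regulatory T cell signature and integrins. Pim1 is drawn under IL-2 but listed with IL-6 and STAT3. Red diamonds (exFoxp3Th17) lie above blue circles (Th0) for the genes drawn under Th17, TGF-beta, HMG-box and follicular helper headings, such as Maf at 2219 and 17.2. The diamonds lie below the circles for the genes drawn under IL-2, resting, interferon and growth headings, such as Socs2 at 149 and 1830. They lie close to the circles for Cd3d, Cd3g and Lat.

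Follicular helper genes were called higher in 7 of 12 and lower in 1 of 12, with a median of 1.37. Bcl6, the repressor that specifies follicular helper cells, was 41.5 in Th0 and 350.2 in exFoxp3Th17 (172 in Th17, 37.4 in Treg), 8.43-fold higher. Cxcr5, the receptor that takes T cells into B cell follicles, was 4.58 in Th0 and 133 in exFoxp3Th17, at least 11-fold higher, and lay below the floor in Th17 (7.84) and Treg (10.3). The inhibitory receptor gene Pdcd1 (25.5 and 106), Cd200 (63.9 and 171), the coactivator gene Pou2af1 (96.7 and 243), Il21 and Tox2 made up the rest of the higher genes. Of these Cxcr5 was above the floor only in exFoxp3Th17, while Pdcd1 was also at 89.7 in Treg. Icos (671 and 1262), Sh2d1a (1117 and 1603), Slamf6 (334 and 466) and Btla (1278 and 724) were within 2-fold, the lower member was the dim Il4 (29.2 and 4.8), and Ascl2 was below the floor.

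HMG-box factors, proteins that bend DNA through a shared domain, had 10 of 13 within 2-fold and a median of 0.20. Over all genes above the floor, 9062 of 11241 were within 2-fold, a similar share. Sox4, which several lymphocyte lineages use early in development, was 206 in Th0 and 4788 in exFoxp3Th17 (71.6 in Th17, 108 in Treg), 23.3-fold higher, and its 5 further probe sets above the floor were all higher by 2-fold or more. Th17 and Treg were both below Th0, so exFoxp3Th17 was the only array above it. Tox2 was the other higher member, and Hmgb2, a chromatin protein of dividing cells, was 2.3-fold lower (4559 and 1986). Tox (131 and 161), Lef1 (1503 and 1510), Sox12 (30.6 and 35.5) and Tox4 (214 and 247) differed little.

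Of 16 TGF-beta genes 7 were higher and 0 lower, the other 9 stayed within 2-fold, and their median was 0.86. TGF-beta signals through paired receptors and Smad proteins and is used in both Th17 and induced regulatory T cell cultures. Of its targets, Tgfbi, a secreted matrix protein, was 1.87 in Th0 and 511 in exFoxp3Th17 (47.6 in Th17, 3.52 in Treg), at least 42.3-fold higher, with all 3 further probe sets alike. Pmepa1, a feedback inhibitor, was 60.2 in Th0 and 868 in exFoxp3Th17 (609.5 in Th17, 265 in Treg), 14.4-fold higher. The corepressor genes Skil (222 and 1816), Ski (215 and 779.8) and Tgif1 (36.4 and 157) were 8.19-fold, 3.63-fold and 4.33-fold higher. For each of these 5 genes exFoxp3Th17 was the highest of the 4 arrays. Of the receptors, Tgfbr1 was 3.6-fold higher (245 and 883), and Tgfbr2 was 1409 and 2666, short of 2-fold. Smad2 (238 and 243), Smad3 (332 and 323) and Smad4 (1241 and 1089) were nearly equal, and the inhibitory Smad7 was 157 and 361 by its brightest probe set and went the other way by less than 2-fold in its other one. The cytokine gene Tgfb1 was within 2-fold, and Tgfb3 was below the floor.

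The regulatory T cell signature was split, with 8 of 20 genes above the floor higher, 6 lower and a median of 0.19. With a floor 4 times as high the median was 1.34, and with no filter and a floor of 1 it was 0.84. Itgae, the integrin alpha E chain that binds E-cadherin, was 8.32 in Th0 and 1298 in exFoxp3Th17 (46.7 in Th17, 384 in Treg), at least 107-fold higher, with its other probe set alike. Nt5e, the ectoenzyme CD73 that makes adenosine, was 107 in Th0 and 1800 in exFoxp3Th17 (866 in Th17, 443 in Treg), 16.8-fold higher. Both were higher in exFoxp3Th17 than in the Treg array. The zinc-finger gene Plagl1 (14.8 and 278), the Ikaros family gene Ikzf4 (59.6 and 383), the semaphorin receptor gene Nrp1 (93.2 and 333), the cytokine subunit gene Ebi3 (70.3 and 239.8) and Ctla4 (755 and 1914) were 18.7-fold, 6.43-fold, 3.57-fold, 3.41-fold and 2.53-fold higher. Ikzf2, which encodes Helios, was 62.2 in Th0 and 158 in exFoxp3Th17, against 2115 in Treg. Its other probe set above the floor went the other way by less than 2-fold (44.8 and 28.1). Among the lower genes, the IL-2 receptor alpha chain Il2ra was 646 in Th0 and 103 in exFoxp3Th17 (2178 in Th17, 2878 in Treg), 6.29-fold lower, and the folate receptor gene Izumo1r was 82.2 and 13.6 (247 in Treg), 6.02-fold lower. Gpr83 (29.1 and 7.98), Entpd1 (25.6 and 8.39) and Tnfrsf18, which encodes GITR (1194 and 597), were lower too. All 5 of these genes, and Socs2 below, had their highest signal in Treg. Il10 was below the floor in Th0 (5.13) and exFoxp3Th17 (12), at 408 in Th17 and 133 in Treg.

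Genes downstream of IL-2 and STAT5 were lower in 5 of 14 and higher in none, with a median of -0.61, which was -0.30 with a floor 4 times as high. Socs2, a feedback inhibitor that STAT5 induces, was 1830 in Th0 and 149 in exFoxp3Th17 (3052 in Th17, 3883 in Treg), 12.3-fold lower, and its 4 further probe sets were all lower, 3 of them by 2-fold or more. Bcl2, the survival gene, was 1414 in Th0 and 483 in exFoxp3Th17 (2227 in Th17, 1398 in Treg), 2.93-fold lower in step with its 4 further probe sets. The exFoxp3Th17 array was the lowest of the 4 for Il2ra, Socs2 and Bcl2. Prdm1, the repressor Blimp-1, was 61.9 in Th0 and 6.96 in exFoxp3Th17 (4.14 in Th17, 422 in Treg), and the cytokine gene Osm was 185 and 81.6. Stat5a (120.1 and 206), Stat5b (284 and 513), Il2rb (173 and 220.5), Cish (420.5 and 353) and Lta (258 and 198) were within 2-fold. Il2rg was not analysed here.

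Genes of IL-6 and STAT3 were higher in 6 of 12 and lower in 2, with a median of 0.82. Besides Stat3, the higher genes were Fosl2, an AP-1 subunit (18.7 and 187), Bcl3, an atypical inhibitor of NF-kB (55.7 and 464), Junb (45.4 and 185), the feedback inhibitor gene Socs3 (663 and 2514) and Hif1a (1224 and 2639). The other probe set of Fosl2 only just reached the floor in exFoxp3Th17 (2.02 and 12.6), with a log2 ratio of 0.05. The 2 further probe sets of Socs3, and likewise those of Hif1a, were higher by 2-fold or more. The lower genes were the kinase gene Pim1, 1792 in Th0 and 238 in exFoxp3Th17 (1821 in Th17, 2458 in Treg), and Myc, 567 and 222 (986 in Th17, 527 in Treg). Both respond to STAT5 as well as to STAT3, and both were lowest in exFoxp3Th17. The receptor genes Il6ra (875 and 647), Il6st (245 and 179) and Il21r (152 and 82.1) were within 2-fold. Among 8 IL-1 family receptor genes, Il1r1 and the decoy receptor gene Il1r2 (4.25 and 212, at least 17.5-fold) were higher and Il1rl2, a receptor of IL-36, was lower (97.5 and 26.7), with a median of 0.78.

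Chemokine and guidance receptors were higher in 9 of 15, lower in 1 and had a median of 1.81, which was 0.45 with a floor 4 times as high. Besides Gpr15, Ccr6 and Cxcr5, the higher genes were Cxcr6 (90.3 and 317), Cxcr4 (128 and 332), Cxcr3 (16.8 and 66.1), Cx3cr1 (9.38 and 51.6), Ccr4 (11 and 51.1) and Ccr8 (11.3 and 49.5), and these last 4 were dim on both arrays and were not called with that floor. Ccr2, a receptor of effector and inflammatory cells, was 164 in Th0 and 10.2 in exFoxp3Th17 (67.2 in Th17, 222 in Treg), at least 13.6-fold lower, with its 3 further probe sets lower too. Ccr7, which keeps T cells in lymph nodes, was 962 and 1357, and the egress receptor gene S1pr1 was 329 and 279. Of 13 integrin genes, 2 were higher, 3 lower and the median was -0.04. Itgb3, the beta chain of the vitronectin receptor, was 797 in Th0 and 9.1 in exFoxp3Th17 (18.1 in Th17, 152 in Treg), at least 65.9-fold lower. Itgb7, the partner chain of integrin alpha E, was 1239 in Th0 and 375 in exFoxp3Th17, 3.3-fold lower, and thus opposite in direction to Itgae. Itga6 was 2.04-fold lower (991 and 485), the dim Itga3 was 3.31-fold higher (14.4 and 47.6), and Itgb2 (1264 and 1966) and Itgal (1038 and 1685) were within 2-fold.

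Naive and resting T cell genes were divided, with 2 of 16 higher, 5 lower and a median of 0.08. Besides Dapl1 and Pdlim4, the lower genes were Klf3, Trat1 and Klf2. Klf2, a factor of quiescence and recirculation, was 1336 in Th0 and 141 in exFoxp3Th17 (273 in Th17, 843 in Treg), 9.48-fold lower. Klf3, a repressor of the same family, was 983 in Th0 and 36.1 in exFoxp3Th17 (97.3 in Th17, 534 in Treg), 27.3-fold lower, and 4 of its 6 further probe sets were lower by 2-fold or more. Trat1, an adaptor that stabilises the T cell receptor, was 994 and 48.2 (23.9 in Th17, 876 in Treg), 20.6-fold lower. For all 3 genes the cultures under Th17 conditions were low and the Th0 and Treg cultures high. The higher genes were the IL-7 receptor gene Il7r, 1267 in Th0 and 3049 in exFoxp3Th17 (297 in Treg), and the repressor gene Bach2, 698 and 1584, whose further probe sets were higher by less than 2-fold. Satb1 (3066 and 4200), Foxo1 (524 and 933), Btg1 (3145 and 5792) and Txnip (1534 and 2517) were within 2-fold, and Tcf7 was not analysed here. Over the 12 Krüppel-like factors, Klf2 and Klf3 were the lower members, 3 were higher and the median was 0.39. The higher ones were Klf12 (11.4 and 154, at least 12.7-fold), Klf4 (20.6 and 153, 7.41-fold) and Klf10, a TGF-beta inducible member (65.5 and 259, 3.95-fold).

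**Figure D4:**
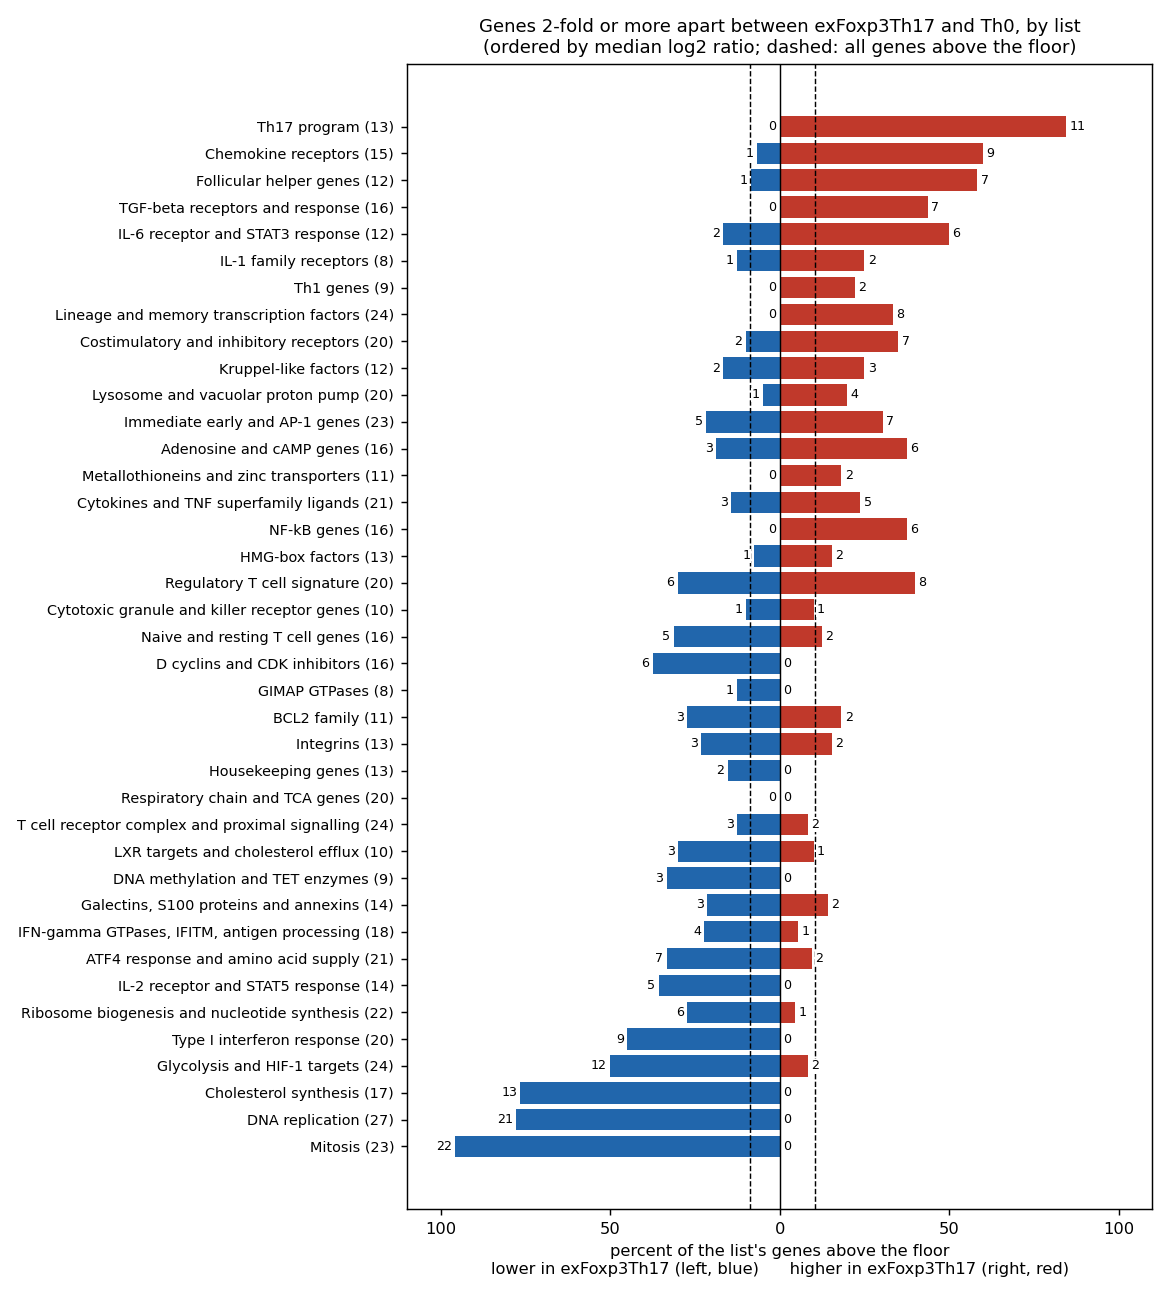
Percent of the genes above the floor in each list (number in brackets) that were 2-fold or more higher (red, right) or lower (blue, left) in exFoxp3Th17 than in Th0, ordered by median log2 ratio, with the numbers of genes at the bar ends and dashed lines at the shares over all genes, 10.5% and 8.85%. The Th17 program (11 of 13) is at the top, the respiratory chain (0 of 20) has no bar, and mitosis (22 of 23) is at the bottom.

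DNA replication and mitosis genes were lower as a group. Every one of the 27 replication genes had a log2 ratio below 0, 21 were called lower, and the median was -1.72. The helicase subunit gene Mcm2 was 468 in Th0 and 101 in exFoxp3Th17 (478 in Th17, 718 in Treg), 4.65-fold lower. The loading factor gene Cdc45 (212 and 35.6), the transcription factor gene E2f1 (88.8 and 11.8), the ribonucleotide reductase gene Rrm2 (2959 and 738) and the sliding clamp gene Pcna (3816 and 1765) were 5.96-fold, at least 7.34-fold, 4.01-fold and 2.16-fold lower. The dim other probe set of E2f1 differed little (20.6 and 17.8, a log2 ratio of -0.21). Of the mitosis genes, all 23 were below 0 and the median was -1.94. Cdk1, the kinase that starts mitosis, was 1280 in Th0 and 212 in exFoxp3Th17 (680.2 in Th17, 1265 in Treg), 6.03-fold lower. The proliferation marker gene Mki67 (3445 and 964), Top2a (4396 and 1064), Aurkb (604 and 131), Plk1 (504 and 105) and Foxm1 (86.1 and 15.7) were 3.57-fold to 5.48-fold lower, and Cenpe, at 506 and 270.3, was the only member within 2-fold. The exFoxp3Th17 array was the lowest of the 4 for each of these 11 genes.

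Promoters of both groups are shown because their members moved together and share known control elements. RefSeq promoters on GRCm38.p6, taken from 250 bases before to 50 bases after each gene's start, were searched on both strands. The letters TTTNNCGC, a form of the E2F site, were found in 11 of the 22 replication genes with a promoter and in 5.93% of all 27025 genes. Of the genes with it 9 of 11 were called lower, and of those without it 9 of 11 were too. The letters TTTGAA, a form of the cell cycle homology region, were found in 13 of 18 mitosis genes and in 20.2% of all genes, and 13 of 13 genes with it and 4 of 5 without it were called lower. CCAAT, which neighbours that element in many mitosis genes, was found in 15 of 18 of them and in 41.1% of all genes. Matches are letters in a window and not shown to be bound. The stretches below are from the 2 lower members of each group with the largest difference whose match lies before the start, read 5′ to 3′ in the direction of the gene, with the E2F letters in Uhrf1 (chr17:56303240-56303329, plus strand) and Cdc6 (chr11:98907972-98908061, plus strand) and the TTTGAA letters, on either strand, in Cdk1 (chr10:69352913-69353002, minus strand) and Kif11 (chr19:37376292-37376381, plus strand) in capitals. Uhrf1, a reader of newly copied DNA, was 855 in Th0 and 149.8 in exFoxp3Th17, the licensing factor gene Cdc6 234 and 53.6, and the spindle motor gene Kif11 768 and 173.
Uhrf1: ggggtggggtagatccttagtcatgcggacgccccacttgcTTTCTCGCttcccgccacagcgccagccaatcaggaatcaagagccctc
Cdc6: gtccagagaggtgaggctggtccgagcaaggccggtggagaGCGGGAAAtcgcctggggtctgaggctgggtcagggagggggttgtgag
Cdk1: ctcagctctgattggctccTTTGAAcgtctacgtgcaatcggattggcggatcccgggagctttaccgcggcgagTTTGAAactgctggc
Kif11: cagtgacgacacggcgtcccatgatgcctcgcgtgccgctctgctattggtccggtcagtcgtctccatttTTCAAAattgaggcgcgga

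Around the core cycle, D cyclins and CDK inhibitors were lower in 6 of 16 and higher in none, with a median of 0.04. Ccnd2, a D cyclin that growth signals induce, was 1693 in Th0 and 623 in exFoxp3Th17 (1959 in Th17, 2273 in Treg), and 5 of its 6 further probe sets were lower by 2-fold or more. Ccnd3 (592 and 168), the inhibitor gene Cdkn2c (785 and 149) and the pocket protein gene Rbl1 (692 and 307) were lower too, whereas Cdkn1b (712 and 851), Cdk4 (469.7 and 569) and Cdkn1a (74.9 and 76.9) were within 2-fold. The maintenance DNA methyltransferase gene Dnmt1, 1631 in Th0 and 364 in exFoxp3Th17 (827 in Th17, 1501 in Treg), was 4.48-fold lower with both further probe sets. The de novo enzyme genes Dnmt3a (218 and 244) and Dnmt3b (113 and 111) were nearly equal, and Tet2 was 2.08-fold lower (220.3 and 106).

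Glycolysis and HIF-1 target genes were lower in 12 of 24, higher in 2 and had a median of -0.85, while none of 20 respiratory chain and citric acid cycle genes was called and their median was -0.14. Tpi1, triose phosphate isomerase, was 3064 in Th0 and 750.2 in exFoxp3Th17 (3906 in Th17, 3905 in Treg), 4.09-fold lower. The glucose transporter gene Slc2a1 (759 and 323), Aldoa (3580 and 1463), Pkm (1355 and 478) and Pdk1, the kinase that holds pyruvate from the mitochondrion (2481 and 798), were 2.35-fold, 2.45-fold, 2.83-fold and 3.11-fold lower. The exFoxp3Th17 array was the lowest of the 4 for all 5 genes. Hk2 (122 and 98.9), Ldha (4336 and 2726) and Pgk1 (5541 and 3631) were within 2-fold. The higher genes were Hif1a itself and Egln3, a prolyl hydroxylase that HIF-1 induces, at 133 in Th0 and 617 in exFoxp3Th17 (2667 in Th17, 596 in Treg). The HIF-induced genes Bnip3 (823 and 263) and Ndrg1 (891 and 222) went the opposite way to Egln3. The letters ACGTG, the core of the hypoxia response element, were found in 18 of 22 promoters of this group and in 21.8% of all genes, and 6 of those 18 genes were lower and 2 higher, against 4 lower of the 4 without it. In the respiratory chain, Cox4i1 (3946 and 3993), Ndufa1 (3731 and 3772) and Atp5b (2420 and 2477) differed by at most 1.02-fold.

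Cholesterol synthesis was lower in 13 of 17 genes and higher in none, with a median of -1.28. Hmgcs1, which makes HMG-CoA, was 3126 in Th0 and 1205 in exFoxp3Th17 (1887 in Th17, 2458 in Treg), 2.59-fold lower in step with its 4 further probe sets. Idi1 (1525 and 424), the squalene epoxidase gene Sqle (817 and 267), the lanosterol synthase gene Lss (331 and 77.7) and the last enzyme gene Dhcr7 (248 and 73.8) were 3.59-fold, 3.07-fold, 4.26-fold and 3.35-fold lower. All 5 were lowest in exFoxp3Th17. Hsd17b7, at 179.9 and 330.0, was the only member above 0, and Insig1 (586 and 373), Srebf2 (453 and 264) and Sc5d (578 and 434) were within 2-fold. Promoters of Lss (chr10:76531501-76531590, plus strand) and Idi1 (chr13:8885516-8885605, plus strand) are shown because the CCAAT box, where NF-Y binds beside sterol-responsive factors, was found in 14 of the 14 cholesterol genes with a promoter, against 41.1% of all genes. Capitals mark CCAAT on either strand. TCACNCCAC, a form of the sterol regulatory element, was found in 1 of the 14, Hmgcs1, and in 1.44% of all genes.
Lss: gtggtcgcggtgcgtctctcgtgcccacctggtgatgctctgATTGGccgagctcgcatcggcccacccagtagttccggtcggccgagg
Idi1: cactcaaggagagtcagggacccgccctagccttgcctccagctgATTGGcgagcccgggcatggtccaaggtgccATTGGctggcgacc

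Sterol efflux and lipogenic targets of LXR were lower in 3 of 10 and higher in 1, with a median of -0.26. Abca1, the transporter that exports cholesterol, was 54.7 in Th0 and 1777 in exFoxp3Th17 (84.9 in Th17, 55.3 in Treg), 32.5-fold higher, and both further probe sets were higher, 1 of them by 2-fold or more. It was low on the other 3 arrays. The desaturase gene Scd1 (356 and 80.9), Fasn (645 and 279) and Mylip, which degrades the LDL receptor (411 and 96.2), were 4.4-fold, 2.31-fold and 4.28-fold lower, and Abcg1 was 573 and 513.

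**Figure D5:**
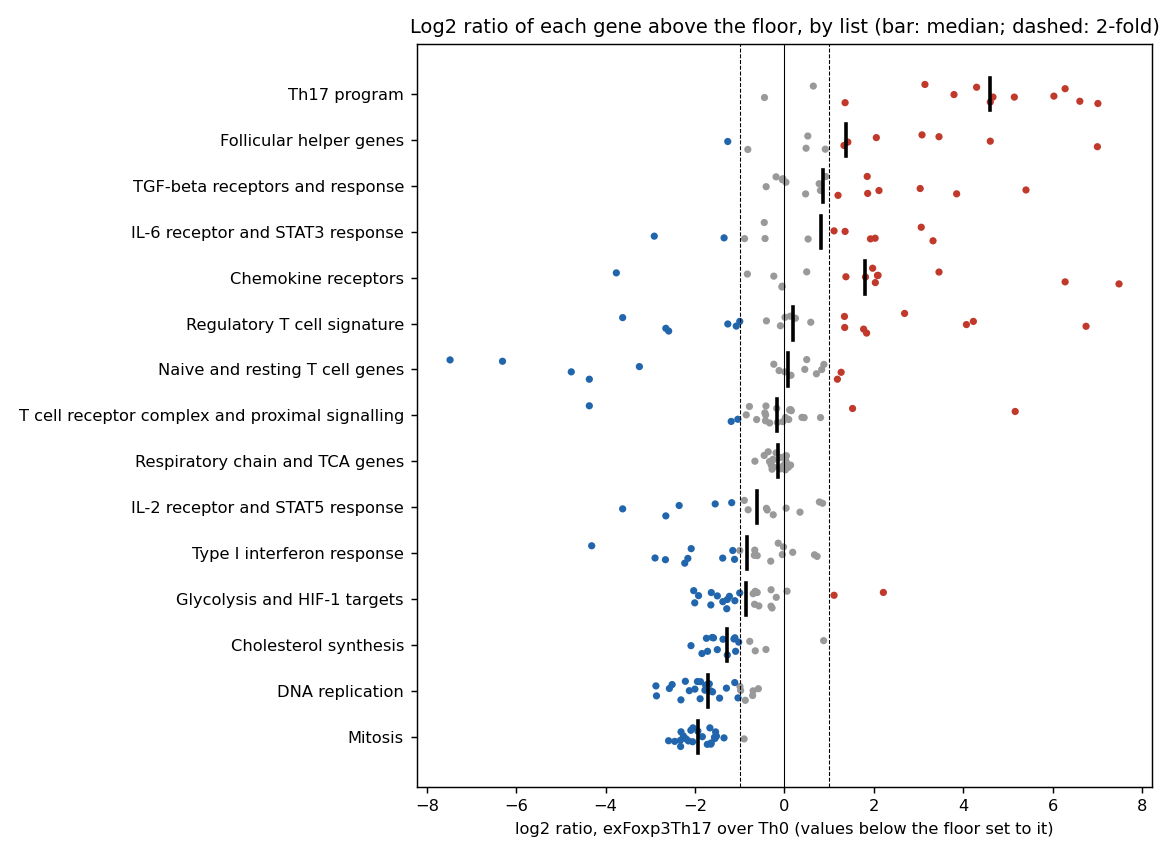
Log2 ratio (exFoxp3Th17 over Th0, values below the floor set to it) of each gene above the floor in 15 lists, 1 point per gene, red and blue where called, with the list median as a bar and dashed lines at 2-fold. Mitosis and DNA replication genes lie wholly below 0 with medians of -1.94 and -1.72, respiratory chain genes lie within 2-fold, and the Th17 program has a median of 4.60.

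Ribosome biogenesis and nucleotide synthesis had 6 of 22 lower, 1 higher and a median of -0.78, with the nucleolar genes Nop56 (806 and 263) and Fbl (1172 and 558) lower and Npm1 (5373 and 5697) and Ncl (3247 and 3041) nearly equal. Odc1, the first enzyme of polyamine synthesis, was the higher member at 677 in Th0 and 3335 in exFoxp3Th17 (2771 in Th17, 2449 in Treg), 4.93-fold with both further probe sets. In the ATF4 and amino acid group 7 of 21 were lower and 2 higher, with a median of -0.49. The serine synthesis genes Phgdh (1276 and 416) and Psat1 (722 and 248) and the kinase-like gene Trib3 (130.4 and 26.5) were lower, and the asparagine synthetase gene Asns was 7.25-fold higher (16.1 and 116). Among the 20 lysosome and proton pump genes 4 were higher and 1 lower, with a median of 0.34. Atp6v0d2, a proton pump subunit, was 7.03 in Th0 and 329 in exFoxp3Th17 (19.6 in Th17, 16.4 in Treg), at least 27.2-fold higher, and the cathepsin genes Ctsl (114 and 726) and Ctss (1481 and 3557) were higher, while the lysosomal regulator gene Tfeb was 4.64-fold lower (58.6 and 12.6).

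Type I interferon response genes were lower in 9 of 20 and higher in none, with a median of -0.84. Rtp4, a receptor transporter that interferon induces, was 342 in Th0 and 17.2 in exFoxp3Th17 (22.3 in Th17, 136 in Treg), 19.9-fold lower. Ifit1 (76.6 and 10.3), Ifit3 (69.6 and 14.8), the exonuclease gene Isg20 (196 and 26.3), Rsad2 (54.1 and 6.8) and Oas3 (51.4 and 1.99) were lower, as were Usp18, Xaf1 and the abundant Ifi27l2a (3779 and 1450). Th17 was also below Th0 for each of these 9 genes, and Treg for all of them but Isg20 (453), so Th0 was the highest of the 4 arrays for the other 8. The median of the list against Th0 was -1.49 for Th17 and -0.75 for Treg, and that of exFoxp3Th17 was -0.47 with a floor 4 times as high. The transcription factor genes Stat2 (30.7 and 30.2) and Irf9 (281 and 271), Ifih1 (132 and 219) and Bst2 (127 and 144) were within 2-fold, and Isg15 was not analysed here. Promoters of Ifit1 (chr19:34640764-34640853, plus strand) and Ifit3 (chr19:34583367-34583456, plus strand), neighbours on chromosome 19, are shown for the interferon-stimulated response element, searched on both strands as GAAA, any pair of bases, GAAA, which is in capitals. It was found in 8 of the 14 genes of the list with a promoter and in 3.99% of all genes, and 4 of the 8 with it and 2 of the 6 without it were called lower.
Ifit1: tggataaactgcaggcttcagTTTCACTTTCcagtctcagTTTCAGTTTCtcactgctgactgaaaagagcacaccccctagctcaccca
Ifit3: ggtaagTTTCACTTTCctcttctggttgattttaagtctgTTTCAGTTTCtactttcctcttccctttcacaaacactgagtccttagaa

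Interferon-gamma inducible GTPases, IFITM and antigen processing genes had 4 of 18 lower, 1 higher and a median of -0.47. Ifitm3, an antiviral membrane protein, was 154 in Th0 and 13.7 in exFoxp3Th17 (17 in Th17, 1624 in Treg), 11.3-fold lower, and Gbp7 (537 and 87) and Igtp (885 and 369) were 6.17-fold and 2.4-fold lower. The guanylate binding protein gene Gbp2 went the other way, 104 in Th0 and 509 in exFoxp3Th17 (1298 in Th17, 1370 in Treg), 4.9-fold higher with its other probe set. Tap1 (589 and 405), Psmb8 (2233 and 1603) and Irf1 (300.3 and 255) were within 2-fold.

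The Th1 regulators Tbx21 (0.73 and 3.01) and Eomes and the cytokine gene Ifng (1.06 and 1.47) were below the floor on both arrays, and 2 of 9 Th1 genes above it were higher, Cxcr3 and Ifngr2 (57.4 and 191). The other probe set of Ifngr2 went the other way by less than 2-fold (49.8 and 46.1). Of 6 Th2 genes above the floor 2 were higher, the receptor genes Ccr4 and Ccr8, and 3 lower, with a median of -0.71. Gata3, the regulator of Th2 cells, was 453 in Th0 and 135 in exFoxp3Th17 (27 in Th17, 288 in Treg), 3.35-fold lower. The IL-4 receptor gene Il4ra was 622 and 109, 5.71-fold lower, though only 1 of its 2 further probe sets went the same way, and Il4 was 29.2 and 4.8. Of 24 further lineage and memory factors 8 were higher and none lower, with a median of 0.58. Bhlhe40, a stress and cytokine regulator, was 89.4 in Th0 and 505 in exFoxp3Th17 (785 in Th17, 325 in Treg), and Id2, an inhibitor of E proteins, was 400.4 and 1507, 5.65-fold and 3.76-fold higher. Ikzf3 (96.8 and 412), Nfat5 (55.6 and 159.7) and the vitamin D receptor gene Vdr (6.06 and 50.5) were higher too, while Runx1 (425 and 448), Tcf3 (241 and 252) and Cbfb (1350 and 1426) differed little and Id3 was 364 and 183.

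Among cytokines and TNF superfamily ligands, 5 of 21 were higher, 3 lower and the median was 0.20. Tnfsf13b, the B cell survival factor BAFF, was 2.11 in Th0 and 256 in exFoxp3Th17 (67.5 in Th17, 7.02 in Treg), at least 21.1-fold higher with its other probe set. Besides Il21, the growth factor gene Csf1 (17.5 and 104), the enkephalin precursor gene Penk (5.66 and 54.1) and Il9 (9.7 and 38.8) were higher, and Il9 stood at 813 in Th17. Fasl (41.3 and 4.41), Tnf (30.1 and 13.3) and Osm were lower, though the other probe set of Fasl was at the floor in Th0 (12.1) and below it in exFoxp3Th17, and Tnfsf11, the RANK ligand gene, was 56.8 and 53.5. Ccl20 was the only called member of 4 chemokine genes above the floor. Costimulatory and inhibitory receptors had 7 of 20 higher and 2 lower, with a median of 0.56. Besides Ctla4, Pdcd1 and Cd200, these were Cd96 (432 and 1029), Tnfrsf25, the receptor of TL1A (314 and 830.3), Tnfrsf1b (77.1 and 248) and the dim Lag3 (1.73 and 32.8), and the activation marker gene Cd69 was 2.47-fold lower (324 and 131) beside Tnfrsf18. Of 10 cytotoxic genes Ctsw was higher, Serpinb6b lower (169 and 82.1), and Gzma, Gzmk and Nkg7 were below the floor.

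Genes of the T cell receptor complex were within 2-fold in 19 of 24, beside 9062 of 11241 over all genes, with a median of -0.17. The phosphatase gene Ptpn22, which restrains receptor signalling, was 542 in Th0 and 1556 in exFoxp3Th17 (706 in Th17, 337 in Treg), 2.87-fold higher, and Rasgrp3 was the other higher gene. Themis (525 and 255) and the adaptor gene Pag1 (853 and 373) were lower besides Trat1. Feedback phosphatases of the MAP kinase pathway were opposed to each other. Dusp4 was 36.2 in Th0 and 1001 in exFoxp3Th17 (615 in Th17, 896 in Treg), 27.6-fold higher, whereas Dusp5 (164 and 15.4) and Dusp6 (661 and 127) were 10.6-fold and 5.19-fold lower. Over all 23 immediate early and AP-1 genes above the floor, 7 were higher, 5 lower and the median was 0.32 (0.02 with a floor 4 times as high), with Jun (71.1 and 224) and Fosl2 higher and Fos (172 and 62.2) lower. Of 16 NF-kB genes 6 were higher and 0 lower, with a median of 0.20. These were Bcl3, Relb (54.6 and 153), Nfkb2 (30.8 and 83.8), Nfkbie (209 and 471), Birc3 (503 and 1285) and Tnfaip3, the inhibitor A20 (121 and 373), while Rela was 382 and 408. In the BCL2 family, the death-promoting gene Pmaip1 was 53.7 in Th0 and 489 in exFoxp3Th17 (270.1 in Th17, 418 in Treg), 9.11-fold higher, and Bmf was 2.52-fold higher (37.6 and 94.9). Bcl2l11, another death-promoting member, was 848 and 351, and Mcl1 was 2100 and 2956.

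Adenosine and cAMP genes had 6 of 16 higher, 3 lower and a median of 0.31. Ramp1, which joins the receptor for the neuropeptide CGRP, was 180.3 in Th0 and 3074 in exFoxp3Th17 (952 in Th17, 60.4 in Treg), 17-fold higher with both further probe sets. The adenosine-making Nt5e was higher while the adenosine-degrading Ada was 55.6 and 13.1, 4.24-fold lower. Entpd1, another adenosine gene of the list, was lower as well, so the called adenosine genes did not all go with Nt5e. The phosphodiesterase genes Pde4d (304 and 951) and Pde7a (179 and 491) and the prostaglandin receptor gene Ptger2 (139 and 386) were higher, and the VIP receptor gene Vipr1 was lower (132 and 27.7). The metallothionein genes Mt1 and Mt2, which bind zinc and copper, were 99.1 and 1178, and 31.9 and 614, 11.9-fold and 19.3-fold higher, and reached 3765 and 2990 in Th17. None of the 9 zinc transporter and regulator genes above the floor was called. Lgals3, galectin-3, was 427 in Th0 and 22.9 in exFoxp3Th17 (968 in Th17, 1748 in Treg), 18.6-fold lower, and was low on the exFoxp3Th17 array alone. S100a4 was 4.79-fold higher (127 and 608), Anxa2 was 3.09-fold lower (2129 and 689.8), and 9 of the 14 galectin, S100 and annexin genes were within 2-fold.

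Genes that are often used as stable references were within 2-fold about as often as all genes above the floor (9062 of 11241). Of 13 measured, 11 were within 2-fold, among them Actb (6144 and 5934), B2m (5091 and 4823) and Eef1a1 (6893 and 6882), and the median was -0.14. The transferrin receptor gene Tfrc, which growth induces (1838 and 711), and Gusb (283 and 139) were lower. Of 8 GIMAP GTPases, T cell survival genes, Gimap7 alone was called (273 and 64.6), and Gimap4 was 3856 and 4075.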

How the data were processed

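Total RNA (1 µg) of 4 sorted T cell populations was hybridised to Affymetrix arrays, 1 array each, per the labels. The authors' deposited values are MAS5 signal intensities on a linear scale, per the submitters' processing notes, and their trimmed means (99.2 to 99.3) show a common scaling. No version of MAS5 is given in the sources used here. Scanner files and detection calls were not used here. Of 45101 probe sets, 34945 name 1 gene, 932 several and 9160 none, and 64 are controls. Symbols were updated through gene IDs to RefSeq (GRCm38.p6). Each of 18193 genes is represented by its probe set with the highest mean log2 signal after values under 12.1 were set to 12.1. Log2 ratios were computed with Python 3.11.15, NumPy 2.4.6 and pandas 2.3.3, drawn with matplotlib 3.10.9, and the code was tested on simulated data. A call needs 2-fold and the higher array above the floor. Of 766 listed symbols 702 were measured. Named genes are Il17a, Foxp3, list members, and the 20 largest ratios each way with at least 4 times the floor, no opposing probe set and an established symbol. The members and lists were chosen with earlier results of these data known. Above the floor were 48.7% to 51.2% of probe sets per array. The 3′ to 5′ signal ratio of Gapdh was 1.06 in Th0 and 0.946 in exFoxp3Th17, and that of Actb 1.23 and 1.31. The number of arrays limits the precision. Alternatives were other floors, a pseudocount, no filter, other scalings, other probe set rules and a 3-fold threshold.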

Additional observations from a re-analysis of the deposited data

How the results depend on the processing

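With 1 array per population no replicate can be left out, and every count describes these arrays alone. No paired analysis was possible because each population has 1 array. Against 1184 genes higher and 995 lower, a floor 4 times as high gave 735 higher, no filter with a floor of 1 gave 2802 higher and 2897 lower, and a 3-fold threshold gave 581 and 425. Averaging all probe sets of each gene gave 825 and 793, and quantile normalization 1183 and 985. Leaving out X and Y genes gave 1124 and 966, and choosing probe sets on the values as deposited gave 1168 and 991; both were chosen after seeing the data. The median log2 ratio of the neutrophil and mast cell markers, 1.11, turned to -0.42 with the floor at 0.5 times and to -0.58 with no filter and a floor of 1. Of 50 lists, 40 kept the sign of their median under every setting, and the Th17 program ranged from 2.95 to 5.34. Among the lists whose median changed sign were chemokines (-0.142 to 3.14), integrins (-0.29 to 0.022) and D cyclins (-0.105 to 0.153). Among other medians that moved by over 1.5 times, the range was 0.45 to 1.98 for chemokine receptors, 0.13 to 1.34 for the regulatory T cell signature, -0.996 to -0.30 for IL-2 and STAT5, -1.09 to -0.47 for type I interferon, 0.44 to 0.77 for Th1 and -0.76 to -0.02 for Th2 genes. It was 0.02 to 0.32 for AP-1, 0.19 to 0.70 for lineage factors, 0.51 to 0.80 for IL-1 receptors, 0.21 to 0.56 for adenosine and cAMP, 0.10 to 0.31 for NF-kB, -0.60 to -0.28 for ATF4 and -0.46 to -0.25 for LXR genes. It was 0.065 to 0.403 for metallothionein, -0.372 to -0.103 for DNA methylation, 0.007 to 0.13 for resting T cell and 0.126 to 0.252 for cytokine genes. Of 215 called genes named in the text, 153 kept their call under every setting, the 3-fold threshold not included, and none reversed. Averaging ended 26 of these calls and the floor at 4 times ended 30. Genes near the floor are the least certain, and the cause of the changes was not tested.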

Other observations

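Probe sets that name no single gene were not used in any comparison above. Of these, 4121 lay above the floor on either array, and 218 were higher and 528 lower in exFoxp3Th17 by 2-fold or more. More of them were thus lower than higher, opposite to the 11241 genes compared above, of which 1184 were higher and 995 lower. The reason for this difference was not tested.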
